A study of Thermothelomyces thermophilus ATCC 42464 with 3 samples.

Results

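Lytic polysaccharide monooxygenases of family AA9 are secreted copper enzymes of fungi that cut cellulose chains by oxidation. They break chains in the crystalline regions that hydrolytic cellulases reach poorly, and the new chain ends can then be used by cellobiohydrolases. They need an electron donor, which may be a small reductant or cellobiose dehydrogenase, and fungi that degrade plant biomass often carry many AA9 genes. The 9 genes described here were chosen by locus tag as published AA9 enzymes of Thermothelomyces thermophilus (formerly Myceliophthora thermophila), a thermophilic filamentous fungus. They are 9 of the 9292 genes in the deposited table, and all 9 are listed as protein coding in the gene table of assembly ASM22609v1. Further AA9 genes of this species were not analysed here. The class of each locus comes from published work, not from the files, which give locus tags and values alone.

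The study measured mRNA by sequencing in 3 libraries of strain ATCC 42464. The library labelled KO90344 has the genotype Mycth_90344 deletion mutant in its labels, and the other 2 libraries were labelled WT. For each library, per the labels' protocols, mycelium was grown in Vogel's salts with 2% glucose for 16 h at 45 °C, washed, and kept for 4 h more with 2% Avicel, a microcrystalline cellulose, as the carbon source. The study's title gives Mycth_90344 as a transcription factor that regulates cellulase genes, and the comparison asks which AA9 mRNAs differ with that label. The sources used here do not give the number of deletion clones or of cultures behind the libraries. The p-values therefore measure only the spread of the WT pair, which may be technical.

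The gene of the label was not absent from the library labelled KO90344. MYCTH_90344 had 6978 reads in the library labelled KO90344, against 217 and 236 reads in the WT libraries, which put its fitted log2 fold change at 4.95 (SE 0.09) with an edgeR adjusted p of 3.14e-30. This goes against the deletion label, so each direction below is a direction in the library labelled KO90344, and loss and gain of the gene cannot be told apart as its background. That library had 20774092 counts, against 21827636 and 20166880 in the WT libraries, and a floor of 3 counts lay at 0.137 to 0.149 CPM (counts per 1000000 counts in genes). The lowest AA9 value rested on 264 reads, far from that floor. In a bulk culture, fewer hyphae that express a gene and less mRNA per hypha cannot be told apart.

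All 9 AA9 genes were used on Avicel, taking 10 CPM or more in every WT library as use, and none was near silent (under 1 CPM). Each library came from Avicel, so use here is a level, and a response to Avicel was not tested. The 9 genes were at 12.7 to 1082 CPM in the library labelled KO90344, against 68.9 to 4723 CPM in WT replicate 1 and 73.8 to 4600 CPM in WT replicate 2. Of all 9292 genes, 68.0% reached 10 CPM in the library labelled KO90344, against 67.3% and 67.6% in the WT libraries. The median AA9 gene stood at 154 CPM in the library labelled KO90344, against 1534 and 1473 CPM in WT, while the median over all genes was 26.6 CPM, against 24.8 and 25.4 CPM in WT.

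Each of the 9 genes was lower in the library labelled KO90344 than in both WT libraries, a position held by 43.7% of all tested genes. All 9 passed the edgeR quasi-likelihood test downwards (adjusted p under 0.05 over all genes), as did 27.6% of the 8340 tested genes. 8 of the 9 passed it and were at least 2-fold lower, against 6.65% of the tested genes. 5 of the 9 were at least 4-fold lower, against 2.00% of the tested genes. The 9 log2 fold changes lay between -4.28 and -0.50 with a median of -2.22, and the median over all tested genes was 0.00491. The WT pair differed by at most 0.0978 on the log2 scale in any of the 9 genes. With 1 library labelled KO90344 the spread was taken from the WT pair, as if both kinds of library varied alike.

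**Figure D1:**
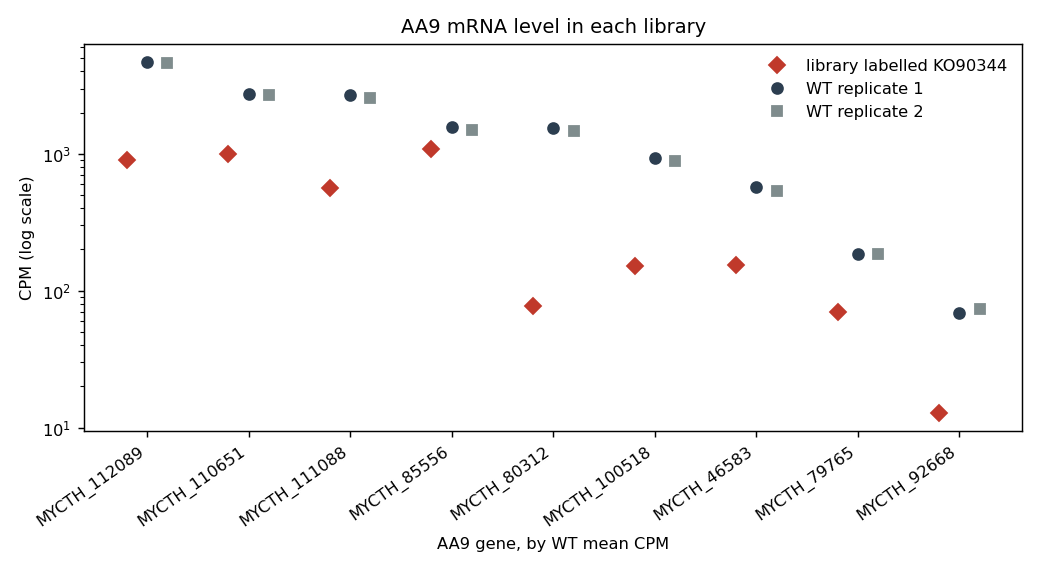
CPM (log scale) of the 9 AA9 genes in the library labelled KO90344 (diamonds), WT replicate 1 (circles) and WT replicate 2 (squares), ordered by WT mean. Each point is 1 library. On this scale the diamond lies below both WT points for each gene, by the least for MYCTH_85556 and by the most for MYCTH_80312, while the WT points nearly coincide.

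MYCTH_112089 was the most abundant of the 9 AA9 mRNAs in WT. It had 895 CPM in the library labelled KO90344, against 4723 and 4600 CPM in the WT libraries, so that it ranked 198 among all genes there, against 14 and 15 in WT. In FPKM, which the authors normalised for gene length, it had 1077 in the library labelled KO90344, against 5809 and 5545 in WT. The WT values lay close together and far above the value of the library labelled KO90344. Its log2 fold change was -2.39 (SE 0.08, edgeR adjusted p = 1.26e-22), which is 5.25-fold lower. This gene made up 35.1% of the summed difference in CPM between the WT mean and the library labelled KO90344 over the 9 genes.

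MYCTH_80312 encodes the enzyme published as MtLPMO9B, which acts on cellulose. It had 77.8 CPM in the library labelled KO90344 (1616 reads, exact 95% Poisson interval 74.0 to 81.7 CPM, counting error only), against 1534 and 1473 CPM in the WT libraries. The groups were far apart, and its rank by CPM was 2164 in the library labelled KO90344, against 104 and 109 in WT. Its log2 fold change was -4.28 (SE 0.09, edgeR adjusted p = 4.73e-28), or 19.5-fold lower, the largest fall of the 9. 0.288% of all tested genes had a lower log2 fold change. It held 13.3% of the summed AA9 difference in CPM.

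MYCTH_85556 encodes the enzyme published as MtLPMO9A, which cleaves xylan bound to cellulose as well as cellulose itself. It had 1082 CPM in the library labelled KO90344 (95% Poisson interval 1068 to 1096 CPM), against 1562 and 1485 CPM in the WT libraries. The groups did not overlap, but in proportion the gap was the smallest of the 9 genes. Its log2 fold change was -0.50 (SE 0.07, edgeR adjusted p = 3.39e-07), which is 1.42-fold lower. That call depended on the spread of the WT pair: it was lost in a likelihood ratio test (edgeR, adjusted p = 0.453) that gave every gene a coefficient of biological variation (BCV) of 0.2, whereas the other 8 genes still passed. By that test 5.98% of all tested genes passed downwards.

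MYCTH_85556 and MYCTH_80312 were set side by side. There were 13.9 reads of MYCTH_85556 for each read of MYCTH_80312 in the library labelled KO90344, against 1.02 and 1.01 in the WT libraries. They are the genes with the lowest and the highest of the 9 fold changes, chosen as such after the values were seen, and the span of 3.78 on the log2 scale between them is a description.

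MYCTH_111088 and MYCTH_110651, published as AA9 enzymes, were the next most abundant of the 9 in WT. MYCTH_111088 had 564 CPM in the library labelled KO90344, against 2676 and 2556 CPM in the WT libraries. MYCTH_110651 had 999 CPM in the library labelled KO90344, against 2745 and 2700 CPM in WT. At nearly the same WT level, MYCTH_111088 fell more, with a log2 fold change of -2.22 (SE 0.08), than MYCTH_110651, with -1.46 (SE 0.07). Their edgeR adjusted p were 8.17e-22 and 1.79e-17, and the difference, in a pair set side by side after its values were seen, was 0.77 on the log2 scale (95% interval 0.56 to 0.98). That interval rests on the spread of the WT pair and on 1 library labelled KO90344. It was not computed at a BCV of 0.2. MYCTH_110651 was second of the 9 by CPM in both conditions, behind MYCTH_85556 in the library labelled KO90344 and behind MYCTH_112089 in WT.

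MYCTH_100518, published as MtLPMO9C, which acts on cellulose and on xyloglucan, had 151 CPM in the library labelled KO90344, against 932 and 891 CPM in the WT libraries. Its log2 fold change was -2.60 (SE 0.08, edgeR adjusted p = 2.27e-23), the second largest fall of the 9. MYCTH_46583 had 154 CPM in the library labelled KO90344, against 569 and 536 CPM in WT, which gave a fitted value of -1.85 on the log2 scale (SE 0.08, edgeR adjusted p = 1.11e-19).

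The least abundant of the 9 AA9 mRNAs also fell. MYCTH_79765 had 69.9 CPM in the library labelled KO90344, against 187 and 184 CPM in the WT libraries, for a fitted change of -1.42 on the log2 scale (SE 0.08, edgeR adjusted p = 1.31e-16). MYCTH_92668, published as MtLPMO9D, which acts on cellulose, had 12.7 CPM in the library labelled KO90344 (264 reads, 95% Poisson interval 11.2 to 14.3 CPM), against 68.9 and 73.8 CPM in WT. It ranked 6015 of 9292 genes in the library labelled KO90344, against 2400 and 2292 in WT, the lowest rank of the 9 in each library. Its log2 fold change was -2.50 (SE 0.12, edgeR adjusted p = 2.26e-18). Between this rarest of the 9 mRNAs and MYCTH_112089 the fold changes differed by 0.11 on the log2 scale. The 95% interval included 0 (-0.17 to 0.38).

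**Figure D2:**
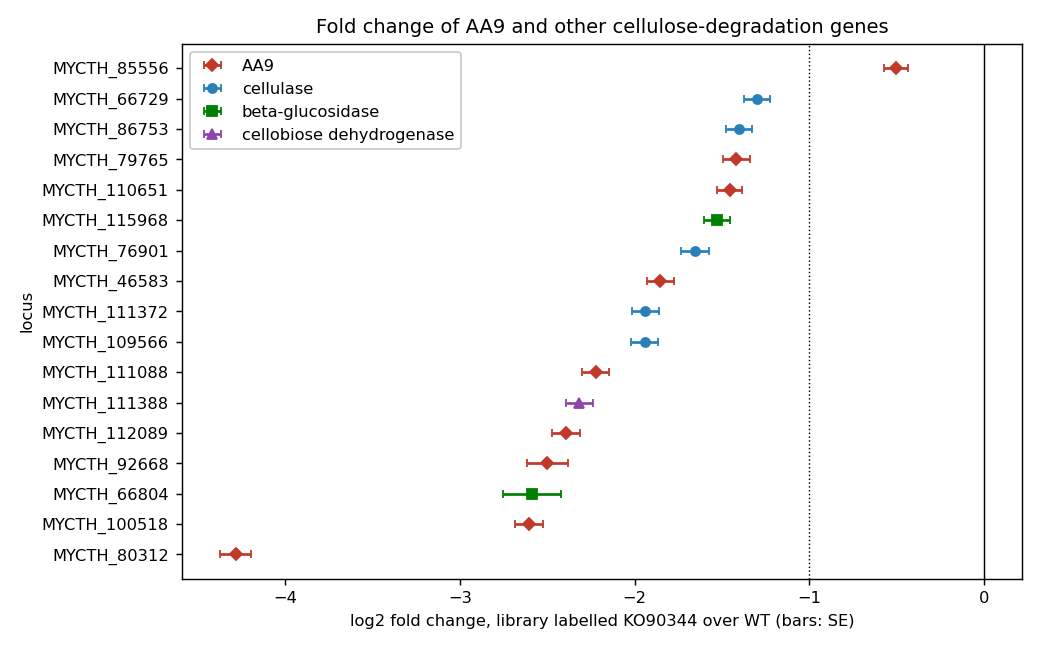
Log2 fold change (library labelled KO90344 over WT, bars are SE) of the 9 AA9 genes (diamonds), 5 cellulases (circles), 2 beta-glucosidases (squares) and 1 cellobiose dehydrogenase (triangle), with lines at 0 and at a 2-fold fall. MYCTH_80312 (-4.28) and MYCTH_85556 (-0.50) lie at the 2 ends, outside the range of the 8 other genes.

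Ordered by fold change, the steps between neighbours differed in size. MYCTH_80312 differed from the next gene, MYCTH_100518, by 1.68 on the log2 scale (95% interval 1.44 to 1.92). MYCTH_100518, MYCTH_92668, MYCTH_112089 and MYCTH_111088 followed with steps whose intervals included 0, the widest being 0.17 (95% interval -0.05 to 0.39) from MYCTH_112089 to MYCTH_111088. MYCTH_46583 stood 0.37 above MYCTH_111088 (95% interval 0.15 to 0.59) and 0.40 below MYCTH_110651 (0.19 to 0.61). MYCTH_110651 and MYCTH_79765 lay 0.04 apart, with an interval that included 0 (-0.17 to 0.25). MYCTH_85556 stood 0.91 above MYCTH_79765 (0.71 to 1.12). These intervals come from the model's SE, which rests on the spread of the WT pair, and treat the genes of a library as independent. They were not computed at a BCV of 0.2. The order was set by the same fold changes, so they describe the steps and test none of them.

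**Figure D3:**
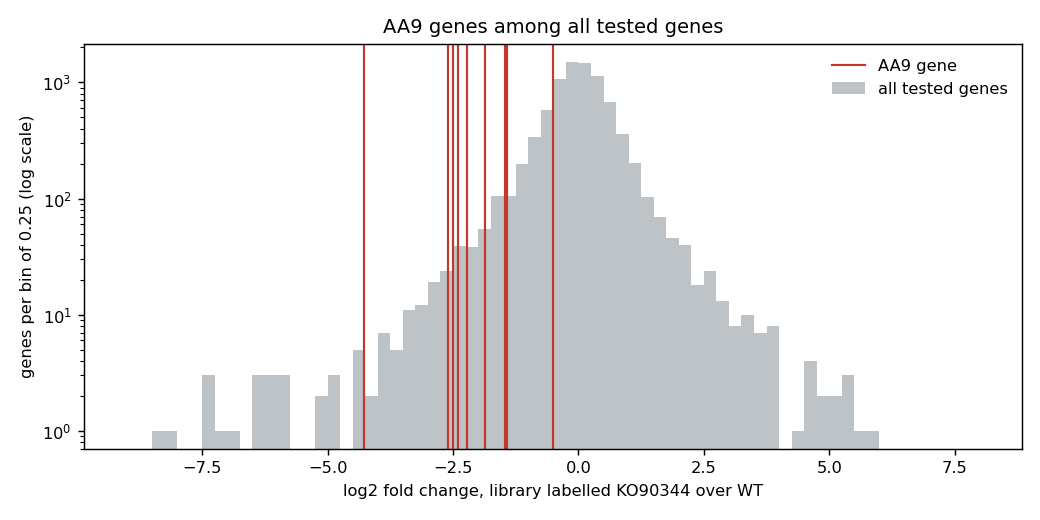
Number of tested genes (log scale) in bins of 0.25 of log2 fold change, library labelled KO90344 over WT, with 1 vertical line for each AA9 gene. The lines lie between -4.28 and -0.50, on the falling side of a distribution with a median of 0.00491.

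FPKM, the scale on which genes can be compared, gave a different order in the library labelled KO90344 and in WT. In the library labelled KO90344 the order was MYCTH_85556, MYCTH_112089, MYCTH_110651, MYCTH_111088, MYCTH_100518, MYCTH_46583, MYCTH_79765, MYCTH_80312 and MYCTH_92668. In WT it was MYCTH_112089, MYCTH_110651, MYCTH_111088, MYCTH_85556, MYCTH_100518, MYCTH_80312, MYCTH_46583, MYCTH_79765 and MYCTH_92668. MYCTH_85556 had 1265 FPKM in the library labelled KO90344, 1.17 times MYCTH_112089, and held position 4 in WT with 1803 ± 89.6 FPKM (SD, n = 2). MYCTH_80312 held position 8 in the library labelled KO90344 with 75.9 FPKM, against position 6 in WT with 1484 ± 63.8 FPKM (SD, n = 2). Not all neighbours in the WT order were apart. The WT ranges of MYCTH_110651 (2504 and 2414 FPKM) and MYCTH_111088 (2522 and 2361 FPKM) overlapped, as did those of MYCTH_100518 (1590 and 1491 FPKM) and MYCTH_80312 (1529 and 1439 FPKM). The other neighbours in the WT order did not overlap, and MYCTH_112089 was 2.31 times the second gene. Orders within the library labelled KO90344 have no replicate. None of the 9 genes was among the 100 highest by FPKM in the library labelled KO90344, against 5 in each WT library.

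**Figure D4:**
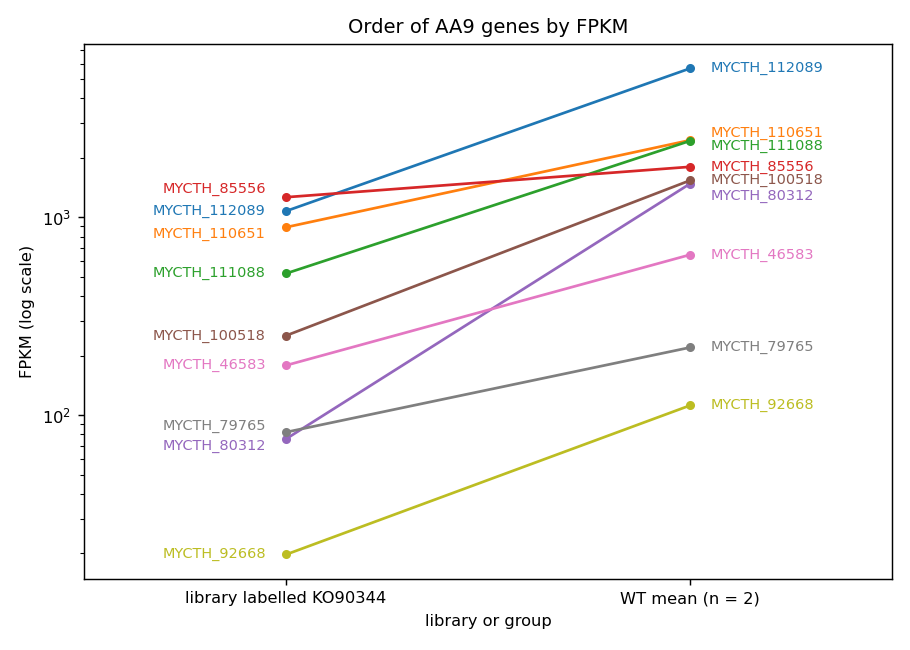
FPKM (log scale) of the 9 AA9 genes in the library labelled KO90344 (1 library) and as the mean of 2 WT libraries, joined by a line per gene. MYCTH_85556 is at the top in the library labelled KO90344 and at position 4 in WT, and MYCTH_80312 has the steepest line.

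Together the 9 genes held 0.401% of all counts in the library labelled KO90344 (95% Wilson interval 0.398 to 0.403%), against 1.47% ± 0.0352 (SD, n = 2) in WT, 3.68 times as much. As a share of the summed FPKM they held 0.515% in the library labelled KO90344, against 1.86% ± 0.0344 (SD, n = 2) in WT. No test was run on these summed shares.

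The make-up of the AA9 pool, taken as the summed counts of the 9 genes, differed as well as its size. MYCTH_85556 made up 27.0% of AA9 counts in the library labelled KO90344 (95% Wilson interval 26.7 to 27.3%), against 10.4% and 10.2% in the WT libraries. MYCTH_112089 made up 22.3% in the library labelled KO90344, against 31.5% and 31.7% in WT. The share of MYCTH_80312 was 1.94% in the library labelled KO90344 (95% Wilson interval 1.85 to 2.04%), against 10.2% in each WT library. MYCTH_110651 had 24.9% in the library labelled KO90344, against 18.3% and 18.6% in WT. The share of MYCTH_46583 was 3.85% in the library labelled KO90344, against 3.79% and 3.70% in WT. By summed FPKM of the 9 genes, MYCTH_85556 held 29.0% in the library labelled KO90344, against 11.1% and 10.9% in WT. MYCTH_112089 held 24.7% of that FPKM, against 34.5% and 34.8% in WT. MYCTH_110651 held 20.4%, against 14.9% and 15.1% in WT, so it lay below MYCTH_112089 in the library labelled KO90344, unlike by counts. The WT libraries differed from each other by less than 1 percentage point in each share, and these shares are descriptions without a test.

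**Figure D5:**
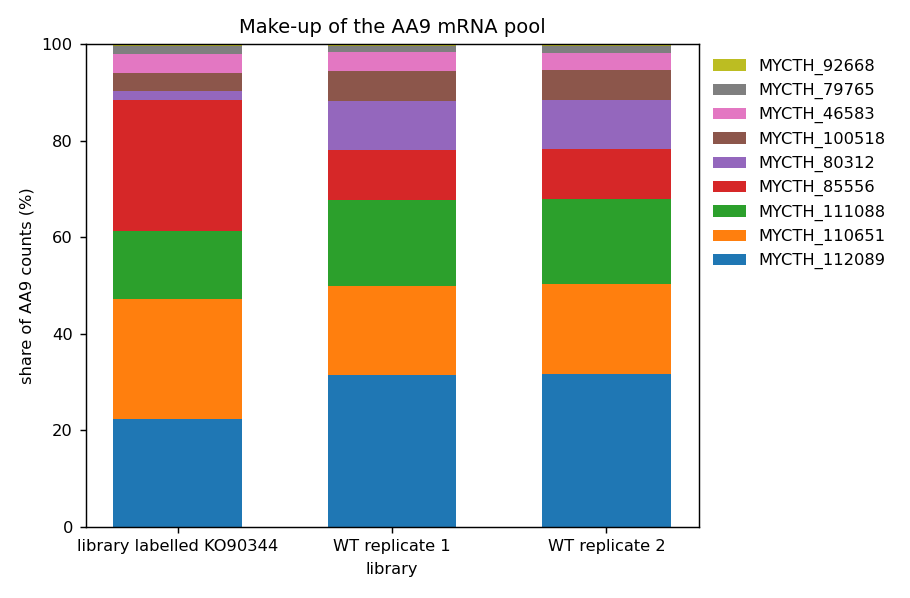
Share of AA9 counts (%) held by each of the 9 genes in the library labelled KO90344, WT replicate 1 and WT replicate 2. The red block, MYCTH_85556, is 27.0% in the library labelled KO90344, against 10.4% and 10.2% in WT, and the purple block, MYCTH_80312, is 1.94% against 10.2% in each WT library.

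The AA9 genes were set beside 8 other genes of cellulose breakdown: 5 cellulases, 2 beta-glucosidases, which split cellobiose, and the cellobiose dehydrogenase gene MYCTH_111388, whose enzyme can pass electrons to AA9 enzymes. These loci were taken over from earlier work on the same data, so their direction is not independent evidence. All 8 passed the test and were at least 2-fold lower, against 6.65% of all tested genes. 2 of them were at least 4-fold lower, against 5 of the 9 AA9 genes and 2.00% of all tested genes. The median log2 fold change was -2.22 for the AA9 genes, -1.80 for the 8 other genes and 0.00491 for all tested genes. Fold changes spanned 3.78 on the log2 scale among the AA9 genes and 1.28 among the others. The wider span was set by MYCTH_80312 (-4.28) and MYCTH_85556 (-0.50). The rest of the 9 lay between -2.60 (MYCTH_100518) and -1.42 (MYCTH_79765), and the 8 other genes between -2.58 (MYCTH_66804) and -1.30 (MYCTH_66729).

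AA9 counts amounted to 0.381 per cellulase count in the library labelled KO90344, against 0.471 and 0.449 in the WT libraries, a ratio of 0.828. Without MYCTH_85556 the values were 0.278 in the library labelled KO90344, against 0.422 and 0.403 in WT. Without MYCTH_112089 the ratio between the conditions was 0.941 in place of 0.828. Set against cellobiose dehydrogenase the AA9 pool was larger in the library labelled KO90344. There were 5.29 AA9 counts per MYCTH_111388 count in it, against 3.99 and 3.88 in WT. That pool includes MYCTH_85556, the gene with the smallest fall, and the ratio was not computed without it. MYCTH_111388 itself had a fitted change of -2.32 on the log2 scale (SE 0.08, edgeR adjusted p = 2.10e-22), near that of MYCTH_112089. The FPKM of MYCTH_112089 was 3.25 times that of MYCTH_111388 in the library labelled KO90344, against 3.46 and 3.38 times in WT. For MYCTH_85556 that multiple was 3.81 in the library labelled KO90344, against 1.11 and 1.06 in WT.

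Against cbh-1 (MYCTH_109566), a cellobiohydrolase that works from chain ends, the share differed by AA9 gene. MYCTH_112089 was at 45.1% of the cbh-1 FPKM in the library labelled KO90344, against 62.6% and 60.6% in the WT libraries. MYCTH_85556 was at 53.0% of it in the library labelled KO90344, against 20.1% and 19.0% in WT. MYCTH_80312 was at 3.18% of it in the library labelled KO90344, against 16.5% and 15.7% in WT.

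The 9 AA9 genes were not direct neighbours of each other in the gene order of assembly ASM22609v1. They lay on 5 chromosomes, with 5 of the 9 on 1 of them, and the closest pair, MYCTH_100518 and MYCTH_92668, had 23 genes between them. Of the 18 genes directly beside 1 of the 9, 14 were tested, and their median log2 fold change was -0.00819. Whether any of the 18 is a further AA9 gene was not assessed. 1 of the 14 was at least 2-fold lower and past the test, against 6.65% of all tested genes, and 1 was at least 2-fold higher, against 5.98%. The lower one was MYCTH_2301780, beside MYCTH_100518, with 4.62 CPM in the library labelled KO90344, against 10.8 and 12.5 CPM in the WT libraries (log2 fold change -1.34, SE 0.21, adjusted p = 1.77e-06 in edgeR). The higher one was MYCTH_2305345, directly beside MYCTH_80312, which had the largest fall of the 9 AA9 genes. It had 21.9 CPM in the library labelled KO90344, against 9.30 and 11.9 CPM in WT (log2 fold change 1.04, SE 0.15, adjusted p = 8.39e-07 in edgeR).

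Likeness of level was measured for MYCTH_112089 as the Euclidean distance of log2(CPM + 1) over the 3 libraries, leaving out the genes described above. The distance was not centred by gene, so it weighs level as well as change. The nearest gene was MYCTH_2303045, at a distance of 0.26, with 810 CPM in the library labelled KO90344, against 5269 and 5108 CPM in the WT libraries. MYCTH_110028 followed at 1.12, with 583 CPM in the library labelled KO90344, against 2790 and 3166 CPM in WT. MYCTH_94171, at 1.22, had 1485 CPM in the library labelled KO90344, against 2873 and 2892 CPM in WT. Against -2.39 for MYCTH_112089, the log2 fold changes of these 3 genes were -2.69, -2.36 and -0.97 in that order. No function is listed for these loci in the tables used, and likeness over 3 libraries is a description.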

How the data were processed

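The data were 1 deposited table of 9292 genes in 3 libraries, with a column of read counts and a column of FPKM for each library. The column headers name the counts Readcounts and the authors' values per gene length and library size FPKM, and say no more. FPKM could be computed from the counts with 1 factor per library and 1 length per gene (relative deviation of at most 2.90e-08), so they give no separate evidence of change. The submitters' processing notes name TopHat2 2.0.8b and HTSeq 0.5.4p2. Settings, build, annotation and strand: not given in the sources used here. Reads that related, overlapping or antisense genes could share were therefore not assessed, and AA9 sequences were not used here. The gene table of assembly ASM22609v1, used for gene type and gene order alone, held all 9292 loci.

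CPM are counts over the library's total count. Counts were tested on the whole table with edgeR 4.0.16 (R 4.3.3): filterByExpr (8340 genes tested, all 9 AA9 genes among them), TMM, glmQLFit and glmQLFTest, KO90344 over WT, with Benjamini-Hochberg adjustment over all tested genes and a threshold of 0.05. The SE was the log2 fold change over the square root of F. The spread came from the WT pair (BCV 0.0484, 30.0 prior degrees of freedom). The WT libraries were kept as 2 libraries, since their counts differ beyond counting noise (chi-square 43615, 8395 degrees of freedom). This does not show that they come from separate cultures. Wilson and Poisson intervals are at 95% and cover counting error only. Alternatives were other scalings, filters, DESeq2 1.42.0, a BCV of 0.2, FPKM with pseudocounts of 1 and 0.1, and leaving out a WT library.

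The AA9 genes, the other lists and the tests were chosen with earlier results of these data known. Named are the 9 AA9 genes, the 8 other genes of cellulose breakdown, MYCTH_90344, genes directly beside an AA9 gene that passed the test and changed at least 2-fold, and the 3 genes nearest in level over the 3 libraries to the most abundant AA9 gene in WT. A protein table planned for finding further AA9 genes by sequence was not used here.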

Additional observations from a re-analysis of the deposited data

How the results depend on the processing

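The count of 8 AA9 genes past the test and at least 2-fold lower was also 8 under the 3 other scalings, both other filters, DESeq2, a BCV of 0.2 and a minimum fold of 1.5. It was 9 with no minimum fold and 5 with a minimum of 4-fold. The same count over all tested genes, 555, became 343 when a mean of 10 CPM or more was required, a filter that tests fewer genes. The direction of each AA9 gene held in each alternative, and 1 call was lost, MYCTH_85556 with a BCV of 0.2 (adjusted p = 0.453). Its log2 fold change lay between -0.55 and -0.45 over the alternatives, and that of MYCTH_80312 between -4.32 and -4.24. Leaving out a WT library, a value with no test, gave an AA9 median log2 fold change of -2.26 to -2.17, 8 AA9 genes and 639 to 662 genes at least 2-fold lower, and an AA9 to cellulase ratio of 0.809 to 0.849. 10 single-gene values then moved by more than 1 SD of the WT libraries. The AA9 share was 0.462% in the library labelled KO90344, against 1.69% in WT, without the 20 most abundant genes in the denominator. That rise is by construction, since none of the 9 genes was among the 20. By FPKM, which also depends on gene length, the AA9 share was 0.515% against 1.86%. The AA9 to cellulase ratio was 0.941 without MYCTH_112089. The library labelled KO90344 cannot be left out. Among the 9 AA9 genes, counting depth limits MYCTH_92668 most, with 264 reads in the library labelled KO90344. The beta-glucosidase gene MYCTH_66804 had 100 reads there. No paired analysis was possible because 1 library was labelled KO90344 and its label has no number shared with WT.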
